A study of Arabidopsis thaliana with 4 samples.

Results

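The UGT genes of Arabidopsis thaliana encode UDP-glycosyltransferases, and those described here are all genes whose symbol begins with UGT and that were read by probes paired with a single gene in the platform annotation. There were 9 such genes, and 8 of them had values on 3 or more arrays and were tested, among 1657 named genes and 24235 features in all. A feature is a named gene or a probe without a name. The ninth gene, UGT76E12 (AT3G46660), had values on 2 arrays and is given without a test. Each of the 9 genes was read by 1 probe. In TAIR10.1, 58 genes have a UGT symbol, so most of the family is not analysed here. A further 8 probes pair UGT80B1 with another gene and were not used.

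The hy5 mutant was compared with wild type after 4 days in continuous white light, with total RNA of both genotypes on each of 4 two-colour arrays. The mutant was labelled with Cy3 on replicates 1 and 2 and with Cy5 on replicates 3 and 4. The labels name neither the hy5 allele nor the accession, organ or age of the plants. Replicates 1 to 4 held values for 25007, 26739, 25057 and 18004 of 27648 probes.

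UDP-glycosyltransferases transfer a sugar from a UDP-sugar to a small acceptor molecule such as a flavonoid, a hydroxycinnamic compound or a hormone. The sugar changes the solubility, stability, transport and activity of the acceptor, and the reaction is often the last step of a pathway. HY5, a transcription factor of the bZIP class, acts in the light to promote seedling development, and genes of flavonoid synthesis are among its well-known targets.

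All values are log2 ratios as the authors deposited them, where 0 means equal signal of both genotypes and 1 means a doubling. The sources used here do not state whether the dye-swapped arrays had been brought to a common direction, so each result has 2 readings. The reading as deposited takes the mutant as the numerator on all 4 arrays, since it is named first in the sample labels. That order does not show whether any array had been turned. In the turned reading, replicates 1 and 2 were multiplied by -1, and the mutant is the numerator if the columns were written as Cy5 over Cy3. Replicates 3 and 4 are the same in both readings. For this reason the text gives ratios and does not state in which genotype a transcript was more abundant. In RNA from whole samples, fewer cells of a type and less RNA per cell cannot be told apart.

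No UGT gene passed an adjusted p of 0.05 (limma, Benjamini-Hochberg adjustment over all 24235 features) in either reading. This was 0 of 8 members, against 0% of all features as deposited and 0% turned. At an unadjusted p under 0.05 there was 1 of 8 as deposited, UGT71C4, where 7.55% of features met that limit. Turned, there was also 1 of 8, UGT72E1, where 8.78% of features met it. These shares of 1 in 8 are near the background given the size of the family. The ordinary statistic without variance moderation gave 0 adjusted calls in both readings, and 1 and 0 members at an unadjusted p under 0.05.

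**Figure D1:**
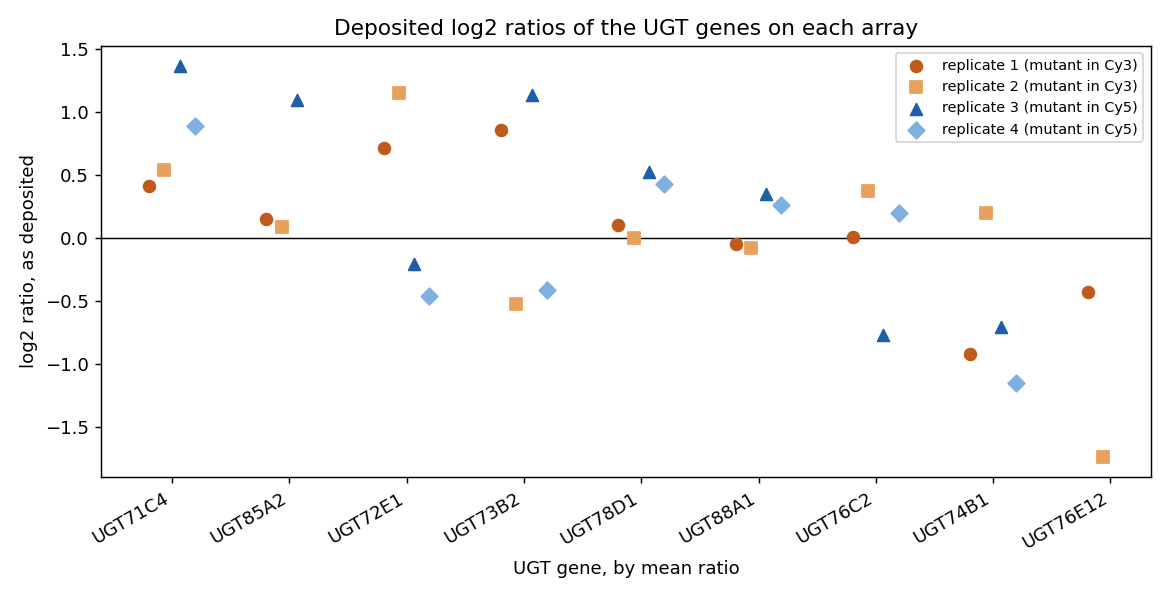
Deposited log2 ratio of each UGT gene (vertical axis, no unit) on each array, with genes ordered by their mean. Points are single arrays, with replicates 1 and 2 in orange (mutant in Cy3) and replicates 3 and 4 in blue (mutant in Cy5). UGT71C4 lies above 0 on all 4 arrays, UGT72E1 lies above 0 on the orange arrays and below 0 on the blue ones, and UGT76E12 has only the 2 orange points.

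Among the genes that act on flavonoids, UGT78D1 (AT1G30530), the flavonol rhamnosyltransferase, had log2 ratios of 0.10, -8.75e-05, 0.52 and 0.43 on replicates 1 to 4. Replicates 1 and 2 were close to 0 and replicates 3 and 4 were both higher. A split between the dye orientations, in either direction, was also seen as deposited in UGT71C4, UGT72E1 and UGT88A1, and in UGT85A2 on its 3 arrays. The share of all features with such a split was not counted. Replicates 3 and 4 differed by only 0.092, and replicates 1 and 2 by 0.10. The mean was 0.26 ± 0.25 as deposited and 0.21 ± 0.31 turned (SD, n = 4). The 95% interval in limma ran from -0.18 to 0.71 as deposited, which is a ratio between 0.882 and 1.64, and from -0.25 to 0.68 turned, a ratio between 0.840 and 1.60. A difference of more than 2-fold in either direction thus lies outside both intervals. The adjusted p in limma was 0.757 and 0.745.

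UGT73B2 (AT4G34135), a flavonol 7-O-glucosyltransferase gene, was the member with the widest spread as deposited. Its log2 ratios were 0.86, -0.52, 1.13 and -0.41 on replicates 1 to 4. The signs were opposite within each dye orientation, with a gap of 1.38 between replicates 1 and 2 and of 1.55 between replicates 3 and 4. The mean was 0.26 ± 0.85 as deposited and 0.097 ± 0.90 turned (SD, n = 4). Neither mean exceeded the spread between arrays, with an adjusted p in limma of 0.870 and 0.949. Of all features, 76.2% had a smaller SD as deposited.

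UGT72E1 (AT3G50740), which encodes a glucosyltransferase of the monolignol aldehydes, was the member with the largest difference between the dye orientations. Its log2 ratios were 0.71, 1.15, -0.20 and -0.46 on replicates 1 to 4. The mean over replicates 3 and 4 was -0.33 and that over replicates 1 and 2 was 0.93, a difference of -1.26. In a model with a dye term this difference had an adjusted p of 0.441 in limma, so it did not pass over all features, and 15.5% of features had a larger one. As deposited the mean was 0.30 ± 0.76 (SD, n = 4), and the adjusted p in limma was 0.833. Turned, all 4 values were negative, with a mean of -0.63 ± 0.40 (SD, n = 4) and a ratio of 0.645. Its 95% interval in limma, -1.17 to -0.10, left out 0, at an unadjusted p of 0.0287 and an adjusted p of 0.531.

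UGT71C4 (AT1G07250) was the only tested member with a positive log2 ratio on all 4 arrays as deposited, at 0.42, 0.54, 1.37 and 0.89 on replicates 1 to 4. Replicates 3 and 4 lay above replicates 1 and 2. Among the 7 members with 4 values it was the 1 that kept its sign, where 19.1% of features with 4 values did so. The mean as deposited was 0.80 ± 0.43 (SD, n = 4), a ratio of 1.75 with a 95% interval in limma of 1.19 to 2.57. The unadjusted p in limma was 0.0138, which 2.68% of features undercut, and the adjusted p was 0.513. With each array left out in turn the mean lay between 0.62 and 0.93 and the unadjusted p in limma between 0.0214 and 0.0468. Turned, the mean was 0.32 ± 0.95 (SD, n = 4), with an adjusted p of 0.817 in limma.

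UGT74B1 (AT1G24100), the S-glucosyltransferase of glucosinolate synthesis, was the member with the most negative mean as deposited. Its log2 ratios were -0.92, 0.20, -0.71 and -1.15 on replicates 1 to 4, so replicate 2 alone was above 0. The mean was -0.64 ± 0.59 as deposited and -0.28 ± 0.89 turned (SD, n = 4). The adjusted p in limma was 0.682 and 0.831. With each array left out in turn, the mean as deposited lay between -0.93 and -0.48 and the unadjusted p in limma between 0.0111 and 0.185. The smallest p came without replicate 2, the only array above 0, with an adjusted p of 0.605 in limma. There the gene joined UGT71C4 under an unadjusted p of 0.05, as did 1682 features in all, whose share was not taken. On replicates 3 and 4 alone, which both readings share, UGT74B1 averaged -0.93 and UGT71C4 averaged 1.13. Their unadjusted p in limma there was 0.0338 and 0.0218, so 2 of the 7 members with both values were under 0.05, where 8.83% of features were. Their adjusted p in limma over the features with values on both arrays was 0.537 and 0.510. Both arrays carry the mutant in Cy5, so dye and genotype cannot be told apart there. On replicates 1 and 2 alone, UGT74B1 and UGT71C4 had an unadjusted p of 0.420 and 0.101 in limma. There 1 of 8 members was under 0.05, UGT72E1 at 0.0314, where 10.2% of features were.

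UGT76C2 (AT5G05860), a cytokinin N-glucosyltransferase gene, had log2 ratios of 0.0098, 0.37, -0.77 and 0.20 on replicates 1 to 4. Replicate 3 was the only negative array and lay 0.97 below replicate 4 of the same dye orientation. The mean was -0.047 ± 0.51 as deposited and -0.24 ± 0.43 turned (SD, n = 4), within the spread between arrays, and the adjusted p in limma was 0.966 and 0.757. The 95% interval in limma as deposited ran from -0.67 to 0.57, a ratio between 0.631 and 1.49.

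UGT88A1 (AT3G16520) had the smallest spread of the members in both readings. Its log2 ratios were -0.049, -0.083, 0.35 and 0.26 on replicates 1 to 4, with gaps of 0.034 and 0.085 within the dye orientations. Turned, all 4 values were positive, with a mean of 0.18 ± 0.14 (SD, n = 4), and only 7.94% of features had a smaller SD. The adjusted p in limma was 0.731. As deposited, the mean was 0.12 ± 0.22 (SD, n = 4), and the adjusted p in limma was 0.875. The 95% intervals were -0.31 to 0.55 as deposited and -0.19 to 0.56 turned, so changes beyond 1.47-fold upward lie outside both.

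UGT85A2 (AT1G22360) had no value on replicate 4. Its log2 ratios were 0.15, 0.085 and 1.09 on replicates 1 to 3, so the single array with the mutant in Cy5 stood well above the pair with the mutant in Cy3. The mean over the 3 arrays was 0.44 ± 0.57 as deposited and 0.29 ± 0.70 turned (SD, n = 3). The adjusted p in limma was 0.764 and 0.815. UGT76E12 was negative on both of its arrays, at -0.43 on replicate 1 and -1.74 on replicate 2, and without a value on replicates 3 and 4 nothing in the data bears on its direction across the dye swap.

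**Figure D2:**
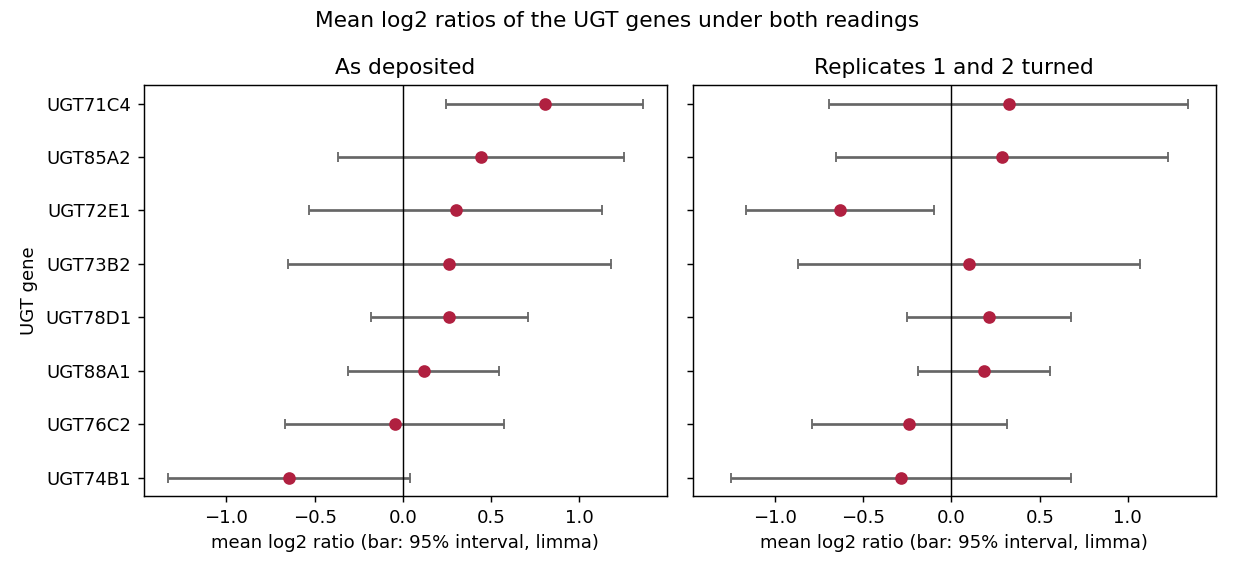
Mean log2 ratio of the 8 tested UGT genes (points) with the 95% interval of the limma fit (bars), as deposited on the left and with replicates 1 and 2 turned on the right. The interval leaves out 0 for UGT71C4 as deposited and for UGT72E1 turned, and these 2 genes had adjusted p-values of 0.513 and 0.531.

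Taken by their means, the members ran in the order UGT71C4, UGT85A2, UGT72E1, UGT73B2, UGT78D1, UGT88A1, UGT76C2 and UGT74B1 as deposited, from 0.80 to -0.64. The interval of each member in this order contained the mean of its neighbour. The median of the 8 means was 0.26, against -0.0064 for all features, and 6 of 8 were positive, against 49.2% of all features. This median was 0.15 without replicate 3 and 0.17 without replicate 1. Turned, the median was 0.14, against -0.014 for all features, and 5 of 8 were positive, against 48.3%. The turned median was -0.089 without replicate 3, 0.087 without replicate 2 and 0.27 without replicate 1, and no family-wide direction was tested. The median size of the means, sign aside, was 0.28 as deposited and 0.26 turned, against 0.23 and 0.24 for all features. The median SD between arrays was 0.54 as deposited and 0.56 turned, against 0.49 and 0.47 for all features. The family thus lay close to the array as a whole in size and spread.

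The signs of the members were also compared between pairs of arrays. Replicates 1 and 2 had the same sign for 5 of 8 members, against 64.1% of features, and replicates 3 and 4 for 5 of 7, against 60.0%. Among pairs of opposite dyes, replicates 1 and 3 had the same sign for 5 of 8 members, against 50.3%, and replicates 1 and 4 for 4 of 7, against 48.7%. Replicates 2 and 4 had it for 3 of 7, against 49.8%. Replicates 2 and 3 had it for 2 of 8, against 46.5%, and there the median gap between the ratios was 0.96 for members and 0.55 for all features. Over all features, arrays of opposite dyes shared a sign for 46.5% to 50.3%, less than same-dye arrays did, and the test of 4 independent arrays makes no allowance for that likeness. Turned, 2 of the 7 members with 4 values had 1 sign on all arrays, UGT72E1 and UGT88A1, where 21.6% of features did so. The smallest two-sided p that an exact sign test on 4 arrays allows is 0.125.

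**Figure D3:**
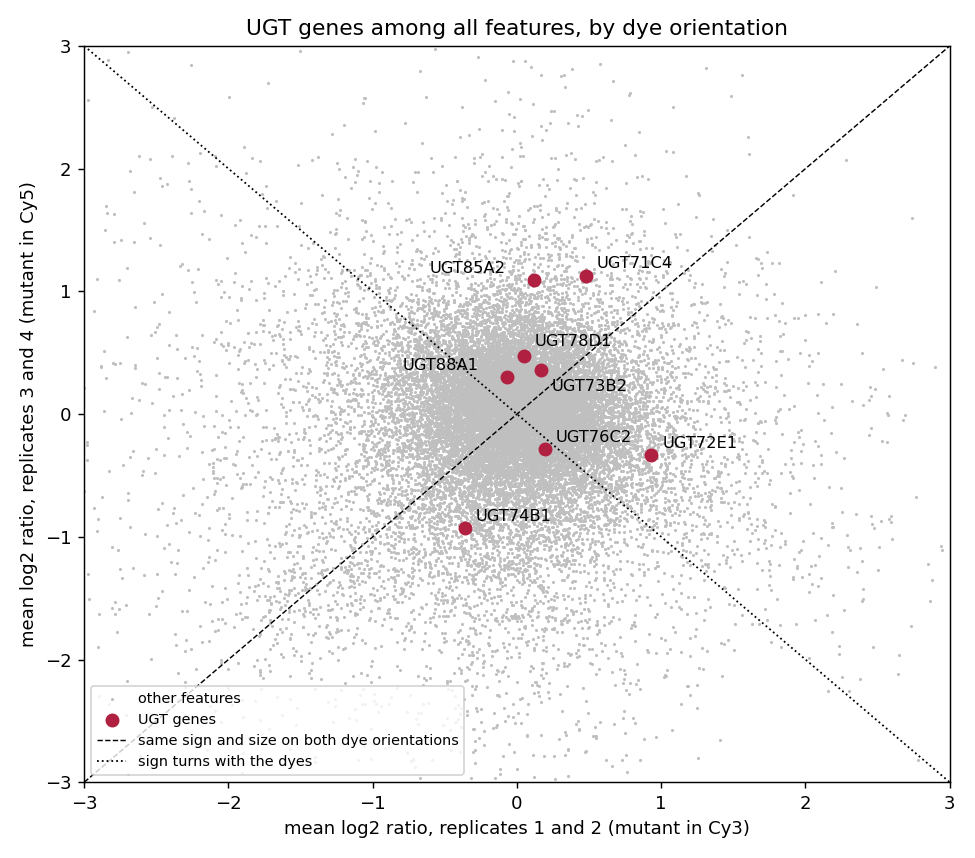
Mean log2 ratio over replicates 3 and 4 (mutant in Cy5, vertical axis) against that over replicates 1 and 2 (mutant in Cy3, horizontal axis). UGT genes are red and labelled, the other features are grey, and 413 of 24235 features lie beyond the axes. UGT71C4, UGT73B2, UGT74B1, UGT78D1 and UGT85A2 keep their sign on both axes, with UGT71C4 and UGT74B1 at 1.13 and -0.93 on the vertical one. UGT72E1, UGT76C2 and UGT88A1 have opposite signs on the 2 axes. UGT85A2 has replicate 3 alone on the vertical axis.

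Of the 8 tested genes, 4 stand beside relatives in the genome, and how far the long oligonucleotide probes tell relatives apart was not tested. By the gene order of TAIR10.1, UGT71C4 lies between UGT71C5 and UGT71C3, and UGT73B2 lies between UGT73B3 and UGT73B1. UGT76C2 lies next to UGT76C1. UGT85A2 lies between UGT85A7 and UGT85A5, and UGT85A3 and UGT85A1 are also within 5 protein-coding genes of it. No other UGT symbol lies within 5 genes of UGT72E1, UGT74B1, UGT78D1 or UGT88A1.

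For the member whose mean was largest in size, sign aside, in each reading, the 3 named genes whose 4 ratios were closest by Euclidean distance were found among 1201 others. WLIM2b (AT3G55770) was closest to UGT71C4 as deposited, at a distance of 0.417, with log2 ratios of 0.35, 0.17, 1.38 and 0.71 on replicates 1 to 4. AT1G15930 and AT5G21090 followed at 0.684 and 0.806. The closest to UGT72E1 turned were AT1G66090, BRH1 (AT3G61460) and AT3G06750, at distances of 0.205, 0.293 and 0.346. AT1G66090 had turned ratios of -0.65, -0.96, -0.24 and -0.48, so its order over the arrays was that of UGT72E1. With 4 arrays such likeness describes these values only.

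Few genes of the pathways that supply acceptors and UDP-sugars were named on the array. Of 23 flavonoid and anthocyanin pathway genes listed, 1 was tested, BAN (AT1G61720), the anthocyanidin reductase of proanthocyanidin synthesis. Its log2 ratios were -0.56, -1.70, -0.30 and -3.34 on replicates 1 to 4, all negative but spread over 3 units, with a mean of -1.47 ± 1.38 as deposited (SD, n = 4) and of -0.85 without replicate 4. Its adjusted p in limma was 0.648 as deposited and 0.915 turned. None of 8 phenylpropanoid entry genes was tested. Of 30 genes of UDP-sugar supply, 1 was tested, the UDP-sugar pyrophosphorylase gene USP (AT5G52560), with -0.41 ± 0.86 as deposited and 0.45 ± 0.82 turned (SD, n = 3).

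Of 3 further enzyme families, none had a member with an adjusted p under 0.05 in limma, whichever reading was used. The 7 BGLU genes, encoding beta-glucosidases that can remove sugars, had a median of 0.16 as deposited and 0.11 turned. With each array left out in turn these ranged from -0.068 (without replicate 4) to 0.24 and from -0.058 (without replicate 2) to 0.21. The 5 GST genes, encoding glutathione S-transferases, had medians of -0.057 and 0.054, and the turned one ranged from -0.037 (without replicate 4) to 0.16. Of the 2 CYP genes, encoding cytochrome P450 enzymes, CYP78A9 (AT3G61880) had 0.74, 0.81 and 2.60 on replicates 1 to 3, and its limma p as deposited was 0.0391 before and 0.639 after adjustment. Its mean was 1.38, and 0.78 without replicate 3. Of the 16 tested genes of these pathways and families, 2 had an unadjusted p under 0.05 as deposited, BAN and CYP78A9, where 7.55% of features did, and 0 turned, where 8.78% did.

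**Figure D4:**
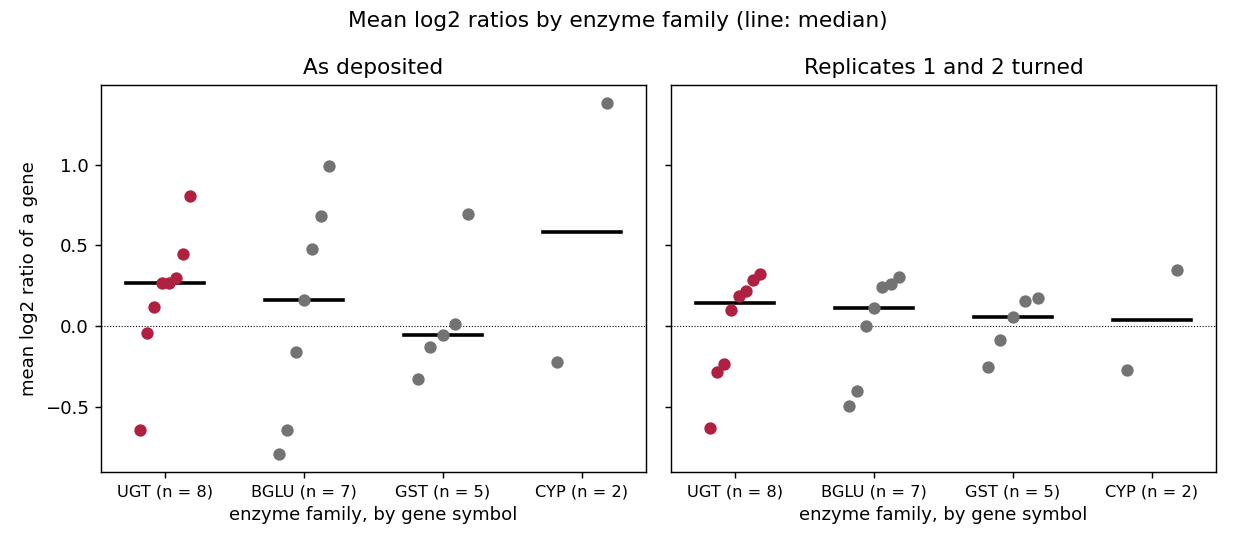
Mean log2 ratio of each tested gene (points) in 4 enzyme families, with the family median as a line, as deposited on the left and with replicates 1 and 2 turned on the right. The UGT means run from -0.64 to 0.80 as deposited and from -0.63 to 0.32 turned, and overlap those of the BGLU and GST genes in both.

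A search of gene synonyms found a pair of glucosyltransferase genes that carry other symbols and stand just outside the family as defined. Relatives without such a synonym, such as genes named by locus alone, would be missed by this search. GT72B1 (AT4G01070), whose synonym is UGT72B1, had -0.089 ± 0.34 as deposited and -0.11 ± 0.33 turned. IAGLU (AT4G15550), an indole-3-acetate glucosyltransferase gene, had 0.034 ± 0.17 and -0.093 ± 0.13 (SD, n = 4 each). Both lay near 0 in both readings, within the range of the UGT means.

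The labels name no organ, and 6 organ marker genes were tested. They were 2 of 4 green tissue markers listed, 3 of 3 root markers and 1 of 3 seed markers. Green tissue was represented by LHCB4.1 and PSAN, with means between -0.13 and 0.045 over both readings. Among root markers, PYK10 had 0.10 and 0.096, and the peroxidase genes AT3G49960 and AT3G01190 had 0.20 and -0.23 as deposited but -1.87 and 1.03 turned. The seed maturation gene LEA18 had -0.39 as deposited and 2.97 turned. Turned, these peroxidase genes and LEA18 had unadjusted p-values of 0.000633, 0.00213 and 0.000262 in limma, below that of every UGT gene, and an adjusted p of 0.467 each. They were 3 of the 6 markers under an unadjusted p of 0.05 in limma, where 8.78% of features were. The markers were chosen with earlier results of these data known, so that share cannot serve as a test. As deposited, 0 of 6 were under it, where 7.55% of features were. The part of organ or stage differences in the UGT ratios was not tested.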

How the data were processed

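The authors deposited 1 log2 ratio per probe and array, and these values were used as given. Limma was used upstream, per the submitters' processing notes, with no version, setting or role. Background correction, normalization, the rule for empty cells, the direction of the ratio and the base of the logarithm (read as 2) are not given in these sources. Without intensities, spots that were dim or saturated are not known, and precision is limited by having 4 arrays. Per the design text, the arrays are 4 biological replicates. Their medians were 0.012, -0.0080, -0.0018 and -0.041 and their SDs 0.865, 1.11, 0.930 and 0.917.

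The platform annotation pairs 2032 of the 27648 probes with a single gene and 644 with more, and symbols were updated by Entrez ID (2029 matched). Probes of a gene were averaged per array. For 26 genes (136 probes) an accession was shared by 3 or more probes; these genes were left unnamed and their probes kept single. Features with values on at least 3 arrays were tested against 0 with limma 3.58.1 in R 4.3.3 (lmFit, eBayes, intercept only, two-sided). The fit was tested on simulated data, with arrays drawn independently and planted changes larger than any UGT mean. That test therefore does not speak to changes of the size seen in the UGT genes. All UGT genes are named, as are list members at an unadjusted p under 0.05 and the 3 genes closest to the UGT gene with the largest mean. Values of other list members, USP and organ markers go beyond that rule. Family members, lists and both readings were chosen with earlier results of these data known. Protein and promoter sequences were not used here, so the planned sequence comparisons were not made.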

Additional observations from a re-analysis of the deposited data

How the results depend on the processing

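No UGT gene passed the adjusted threshold in limma under any alternative run, and the smallest adjusted p of a member was 0.357. Of 236 UGT gene values under alternatives, 219 kept their sign, though several settings leave a mean unchanged by construction. Mutant and wild type are already paired within each array by the ratio, and the 4 arrays form 1 group, so no further pairing was made. By Dixon's gap test, 0 of 32 sets of 4 values had an array far from the other 3. These sets include the 7 UGT members with 4 values, and each gene counts under both readings. Genes with an empty cell, such as UGT85A2 and CYP78A9, were not tested in this way. Signal over background was not used here.

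The number of UGT genes at an unadjusted p under 0.05 was 1 to 2 as deposited and 0 to 1 turned with each array left out. On the arrays with the mutant in Cy5 it was 2 of 7 in both readings, where 8.83% of features met that limit. With the mutant in Cy3 it was 1 of 8, where 10.2% did. Without moderation it was 0 turned. Turned, it was 0 without replicate 1, 2 or 4, where UGT72E1 no longer met that limit. For listed genes that count was 1 to 2 as deposited with arrays left out, 0 without moderation and 1 with values on all 4 arrays (which drops CYP78A9), and 1 turned with a dye term. Over all features it was 1830 as deposited and 2128 turned. It was 884 and 684 when the log2 ratio also had to reach 1 in size, which by construction leaves fewer, and 1306 to 1829 and 1325 to 2105 with arrays left out, lowest when turned without replicate 2.

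The following means changed sign, and other than for the turning the cause was not tested. As deposited, UGT72E1 was at -0.3325 on replicates 3 and 4 alone (mutant in Cy5) and at -0.6322 with replicates 1 and 2 the other way. On replicates 1 and 2 alone (mutant in Cy3), UGT76C2 was at 0.1911, UGT88A1 at -0.06605 and GT72B1 at 0.02551. IAGLU was at -0.05973 with the mutant in Cy5 and at -0.09335 the other way. With arrays left out, UGT73B2 ranged from -0.02579 to 0.5262, UGT76C2 from -0.1865 to 0.1947, GT72B1 from -0.2192 to 0.03676 and IAGLU from -0.04337 to 0.09001. Turned, on replicates 1 and 2 alone (mutant in Cy3), UGT71C4 was at -0.4799, UGT73B2 at -0.1672, UGT74B1 at 0.3604, UGT78D1 at -0.0502 and UGT85A2 at -0.1176. The other way, UGT72E1 was at 0.2997, AT1G66090 at 0.2243, BRH1 at 0.1999, AT3G06750 at 0.3782 and IAGLU at 0.03362. With arrays left out of the turned ratios, UGT71C4 ranged from -0.02397 to 0.6133, UGT73B2 from -0.2487 to 0.4147, UGT74B1 from -0.6858 to 0.004014, UGT85A2 from -0.1176 to 0.505 and GT72B1 from -0.2362 to 0.002746.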
